A study of Mus musculus with 4 samples.

Results

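The MYC, MAX and MXD network is a family of basic helix-loop-helix leucine zipper proteins, and 10 of its genes were followed here, namely *Myc*, *Mycn*, *Mycl*, *Max*, *Mxd1*, *Mxi1*, *Mxd3*, *Mxd4*, *Mnt* and *Mga*. They were selected by gene symbol, with no measured value in the rule, although earlier results of these data were known. All 10 were found among 18598 genes with deposited values. All 10 also passed the filter for testing, a mean of at least 10 normalized read counts over the libraries, which 14858 genes passed.

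RNA was sequenced from LSK cells, the lineage-negative, SCA-1-positive and c-KIT-positive bone marrow cells that hold hematopoietic stem and progenitor cells, in 2 *Bptf* cKO and 2 control (*Bptf* f/f) libraries. BPTF is the largest subunit of the nucleosome remodeling factor NURF, which is known to interact with c-MYC, and the comparison addresses which genes depend on BPTF in these cells. *Bptf* cKO mice were *Bptf* f/f with *Mx1*-cre and controls were littermates, called only control in the labels. All were C57BL/6 mice about 3 months old, pIpC was given in 3 injections, and cells were sorted 10 days after cre induction and pooled from 5 mice per replicate. The *Mx1* promoter answers to interferon and is not restricted to hematopoietic cells, so both genotypes in this design are from mice exposed to an interferon inducer shortly before the sort. No label says whether cre was present in the controls, and the study's text names cre only for the *Bptf* cKO cells of this comparison. On that reading, effects of cre and of *Bptf* loss cannot be told apart here.

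In this network, MAX is the shared partner. MYC, MYCN or MYCL pairs with MAX, binds E-box DNA and activates genes of growth and biosynthesis, whereas the MXD proteins (MXD1, MXI1, MXD3 and MXD4), MNT and MGA pair with the same MAX, bind the same DNA and repress, MXD and MNT through SIN3 corepressors and MGA in a polycomb complex. In the marrow, MYC is known for the balance between self-renewal and differentiation of stem cells, MYCN for a partly overlapping role in the same cells, and MXD1 for the exit of myeloid precursors from the cell cycle. MLX with MLXIP and MLXIPL forms a parallel branch that shares MXD1, MXD4 and MNT as partners and responds to glucose.

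The libraries held 24875746 and 14091054 reads on listed genes in the controls and 30134742 and 14104526 in *Bptf* cKO. *Bptf* itself had 5520 and 5850 normalized read counts in the controls and 3398 and 3320 in *Bptf* cKO, a log2 difference of -0.76 ± 0.090 (SE, n = 2 per genotype, limma adjusted p = 0.0439), with 59.1% of the control mean left over the whole gene. That call was lost, in the same direction, when any one of the libraries was left out, with edgeR's quasi-likelihood test (adjusted p = 0.0531), with libraries recentred on their medians (0.0547) and in limma without the trend (0.178). It held with DESeq2 (adjusted p = 9.73e-08), and the log2 difference stayed between -0.81 and -0.71 in every alternative. The LSK markers *Kit*, *Ly6a* and *Cd34* were detected in every library. Of 10 T and NK cell markers 4 were listed, and *Cd3d*, *Cd3e* and *Cd3g*, which define T cells, were not. The listed ones summed to 0.0108% and 0.00678% of the control reads and 0.0121% and 0.0118% of the *Bptf* cKO reads. Of these, *Nkg7* had 1920.0 and 1200.2 normalized read counts in the controls and 2224 and 2210 in *Bptf* cKO. *Klrb1c* had 20.2 and 29.1 against 60.4 and 87.5. For both genes the *Bptf* cKO libraries lay above both controls, as for 23.2% of all tested genes. For *Cd4* they lay below both, as for 23.8%. Limma called 0 of the 3, against 0.74% of all tested genes. Summed granulocyte markers took 0.433% and 0.0684% of the control reads and 0.261% and 0.207% of the *Bptf* cKO reads, and the part of these other cell types in the results below was not tested.

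The E-box that MYC:MAX and MXD:MAX dimers bind most strongly is CACGTG, which reads the same on both strands. It was searched for in RefSeq promoter windows (GRCm38.p6, 250 bases before to 50 bases after a transcription start), where 7.15% of 32851 windows hold it, as do 11.7% of the 10378 tested genes with a promoter entry. Of 9 network genes with an entry, 3 hold it, and these sites are shown because they sit in promoters of the network's own genes. Positions count from the start site, with -1 the base before it. The E-box begins at -3 in *Max*, -123 in *Mnt* and -219 in *Mxd4*. Beside them are the sites of *Mlx* at -40 and *Mlxipl* at -98. Each is printed with 12 bases on either side, 5′ to 3′ on the gene's strand, and capitals mark the E-box.
Max, chr12:76962234-76962263, minus strand: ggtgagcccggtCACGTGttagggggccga
Mnt, chr11:74830789-74830818, plus strand: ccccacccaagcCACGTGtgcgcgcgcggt
Mxd4, chr5:34187912-34187941, minus strand: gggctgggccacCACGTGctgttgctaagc
Mlx, chr11:101087238-101087267, plus strand: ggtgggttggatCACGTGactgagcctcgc
Mlxipl, chr5:135089780-135089809, plus strand: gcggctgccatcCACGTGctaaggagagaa
The flanks of these sites differ from one another, and 3 of the 5 lie within 100 bases of the start. *Mycn*, *Mycl*, *Mxd1*, *Mxd3*, *Mxi1*, *Mga* and *Mlxip* have no CACGTG in their windows, and *Myc* has no entry in the promoter table.

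Per kilobase of exon (the union of GENCODE exons, a length that includes exons a cell may not use), *Myc* was the most abundant member in the control LSK cells, at 2187 ± 654 normalized read counts per kb (SD, n = 2). *Max* followed at 593 ± 36.7 and *Mycn* at 486 ± 47.7. *Mnt* (338 ± 82.1), *Mxd4* (258 ± 92.8) and *Mga* (250 ± 3.17) came next, and the ranges of *Mnt* and *Mxd4*, and of *Mxd4* and *Mga*, overlapped. *Mxd3* (151 ± 26.0) and *Mxi1* (142 ± 14.3) overlapped with each other, *Mxd1* lay below them at 114 ± 15.9, and *Mycl* was the lowest, at 7.10 and 10.6 in the 2 control libraries. *Myc* alone gave 83.4% and 78.8% of the per-kb level of the 3 *Myc* family genes in the controls and 82.8% and 82.9% in *Bptf* cKO, so these cells carried a *Myc* and *Mycn* transcript pool with almost no *Mycl*.

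No member passed the adjusted threshold in limma with genotype as the only factor. The fit, with adjustment over all tested genes, called 0 of 10 members at an adjusted p under 0.05, where 0.74% of all tested genes were called (0.37% higher and 0.37% lower in *Bptf* cKO). EdgeR's quasi-likelihood test called 0 members against 0.633% of all tested genes, and DESeq2 called 0 against 5.51%. At an unadjusted limma p under 0.05 there was 1 member, *Mycl*, against 15.7% of all tested genes. Both *Bptf* cKO libraries lay above both controls for 2 of 10 members (20%, against 23.2% of all tested genes) and below both for 3 (30%, against 23.8%), shares close to those of the genes at large. The median log2 fold change of the 10 was -0.077, beside 0.0010 for all tested genes.

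**Figure D1:**
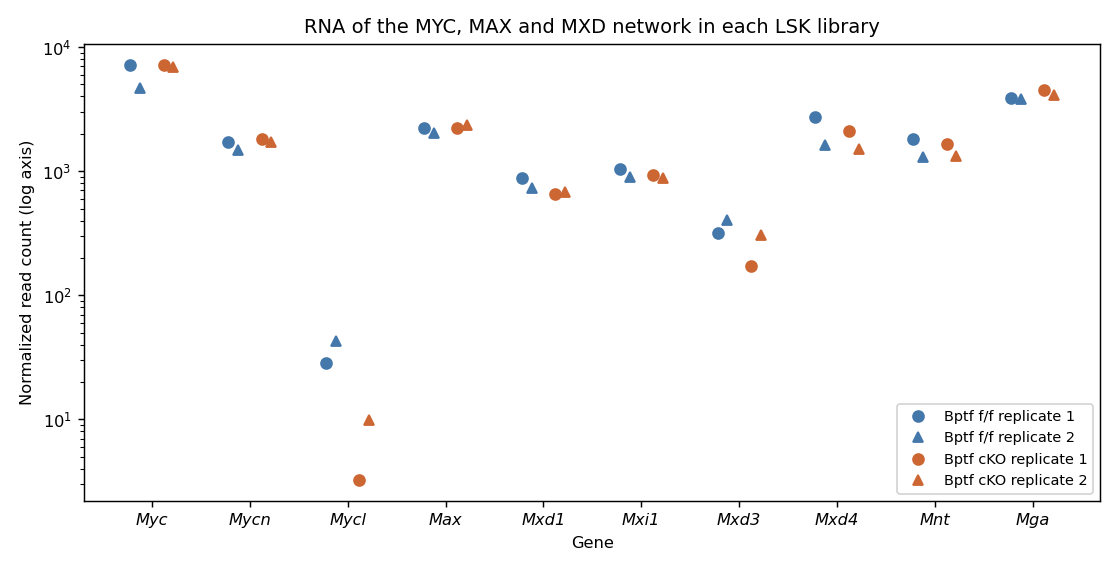
Normalized read count (log axis) of each network gene in each library, with circles for replicate 1 and triangles for replicate 2, blue for Bptf f/f and orange for Bptf cKO. The groups separate widely for *Mycl*, from 28.7 and 43.0 to 3.25 and 9.88, while *Myc* has 3 libraries between 6861 and 7199 and 1 control library at 4685.

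Among the activators, *Myc* (chr15:61985391-61990374, plus strand, GRCm38), which encodes c-MYC, had 7199 and 4685 normalized read counts in the controls and 7173 and 6861 in *Bptf* cKO. The groups overlapped, since control replicate 1 was at the level of both *Bptf* cKO libraries and control replicate 2 was the only low one. The log2 fold change was 0.27 ± 0.21 (SE, limma adjusted p = 0.603), with a 95% interval of -0.26 to 0.80, which runs from 0.837-fold to 1.74-fold. Its size and sign rested on control replicate 2, without which the value was -0.037, and it was 0.58 without control replicate 1. *Myc* RNA was thus measured with little counting error, at no fewer than 3380 reads in a library, and the spread between the 2 control libraries set the width of the interval.

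*Mycn* (chr12:12936093-12941914, minus strand), the N-MYC gene, had 1712 and 1490 in the controls and 1804 and 1706 in *Bptf* cKO. Control replicate 1 lay just above *Bptf* cKO replicate 2, so the groups overlapped by a narrow margin. The log2 fold change was 0.14 ± 0.12 (limma adjusted p = 0.642, 95% interval -0.16 to 0.43).

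*Mycl* (chr4:122995652-123002485, plus strand), which encodes L-MYC, was the member with the largest difference and the fewest reads. It had 28.7 and 43.0 normalized read counts in the controls and 3.25 and 9.88 in *Bptf* cKO, from 37 and 31 reads against 5 and 7. The *Bptf* cKO libraries were both below the controls, and their mean was 18.3% of the control mean. The log2 fold change was -2.41 ± 0.66 with 1 added to each normalized count before the log (limma adjusted p = 0.194, unadjusted p = 0.0133, 95% interval -4.08 to -0.74), and the adjusted p was 0.194 with edgeR and 0.110 with DESeq2. With the replicate number as a block, a pairing that no label states, the adjusted p was 0.0154 in limma and 0.00980 in edgeR. Those fits called 14.4% and 14.3% of all tested genes. In bulk RNA of sorted cells, fewer cells that express a gene and less RNA per cell cannot be told apart.

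L-MYC is best known in blood from conventional dendritic cells and their progenitors, and a list of dendritic cell genes was therefore added after the *Mycl* values had been seen. *Zbtb46*, a transcription factor of conventional dendritic cells, had 63.6 and 73.5 in the controls and 12.3 and 16.9 in *Bptf* cKO, a log2 difference of -2.16 ± 0.39 (limma adjusted p = 0.0926). *Xcr1*, a chemokine receptor of the cross-presenting subset, had 10.1 and 43.0 against 0.650 and 9.88, and *Clec9a*, a receptor for dead cells on the same subset, had 21.7 and 37.4 against 10.4 and 21.2. *Batf3*, the factor that subset needs, was too low to test, at 1.55 and 4.16 against 0.650 and 9.88. In *Zbtb46*, *Xcr1* and *Clec9a* both *Bptf* cKO libraries were below both controls, a pattern that 23.8% of all tested genes showed. The margin was narrow for *Xcr1* (9.88 against 10.1) and *Clec9a* (21.2 against 21.7), at counts about as low as those of *Mycl*.

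Of 10 genes in that list 8 were listed and 7 tested. Limma called 0 of them, 1 passed at an unadjusted p (15.7% of all tested genes), edgeR called 0 and DESeq2 called 1, *Zbtb46* (5.51% of all tested genes). In 4 of the genes both *Bptf* cKO libraries were below both controls, and in 1 above, where 23.8% and 23.2% of all tested genes were. The gene that lay above was the only tested one with a log2 fold change above 0, at 1.27, beside 6 below 0. It is not among the genes shown, which were picked from the list. The summed level over the list was 5860 and 3949 in the controls and 3714 and 4206 in *Bptf* cKO, most of it from *Tcf4* and *Irf8*, which other LSK cells express too, and *Siglech* and *Cd209a* were not listed. Whether a change in dendritic progenitors has a part in the *Mycl* values was not tested.

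**Figure D2:**
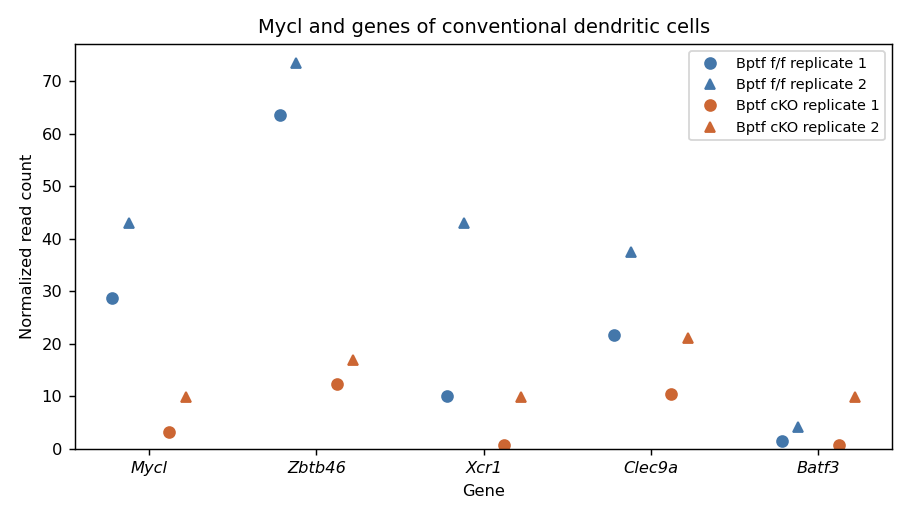
Normalized read count of *Mycl* and 4 genes of conventional dendritic cells in each library (linear axis from 0), with circles for replicate 1 and triangles for replicate 2. For *Mycl*, *Zbtb46*, *Xcr1* and *Clec9a* both Bptf cKO libraries (orange) lie below both Bptf f/f libraries (blue), narrowly so for *Xcr1* (9.88 against 10.1) and *Clec9a* (21.2 against 21.7). The 4 genes were picked from a list in which 1 tested gene, not shown, lay above both controls.

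*Max* (chr12:76937269-76962201, minus strand), the partner that every other member needs, had 2225 and 2039 in the controls and 2241 and 2334 in *Bptf* cKO. The *Bptf* cKO libraries were above both controls, although by little, 2241 against 2225 at the closest. On the log2 scale the difference was 0.10 ± 0.100 (limma adjusted p = 0.693, 95% interval -0.15 to 0.36, or 0.901-fold to 1.28-fold).

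The MXD repressors all had fold changes below 0, and none passed the adjusted threshold with genotype as the only factor. *Mxd1* (chr6:86647042-86669161, minus strand), the gene of MAD1, had 887 and 728 in the controls and 659 and 676 in *Bptf* cKO. The *Bptf* cKO libraries both lay below the controls, and they differed by -0.27 ± 0.14 on the log2 scale (limma adjusted p = 0.453, 95% interval -0.63 to 0.097). It was -0.12 without control replicate 1 and -0.41 without control replicate 2.

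*Mxd3* (chr13:55325168-55329823, minus strand), the member of the family known from proliferating cells, had 315 and 402 in the controls and 174 and 303 in *Bptf* cKO. Here too the groups did not overlap, but the *Bptf* cKO libraries differed 1.75-fold from each other, and the higher of them nearly reached control replicate 1. On the log2 scale the groups differed by -0.63 ± 0.31 (limma adjusted p = 0.418, 95% interval -1.42 to 0.16), by -0.23 without *Bptf* cKO replicate 1 and by -1.03 without *Bptf* cKO replicate 2. With the replicate number as a block the adjusted p was 0.0334 in limma and 0.0358 in edgeR, where 14.4% and 14.3% of all tested genes were called. Of its exon length 4.43% overlaps *Prelid1* on the other strand, and the strand setting of the counting is not given in the sources used here.

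*Mxd4* (chr5:34173883-34187720, minus strand), associated with differentiating and resting cells, had 2746 and 1633 in the controls and 2125 and 1504 in *Bptf* cKO. In both genotypes the library numbered 1 was the higher, by 1.68-fold in the controls and 1.41-fold in *Bptf* cKO, and the groups overlapped. Its log2 fold change was -0.24 ± 0.29 (limma adjusted p = 0.755), and it changed sign to 0.13 without control replicate 1 and to 0.0053 without *Bptf* cKO replicate 2. *Mxi1* (chr19:53310518-53375810, plus strand), the gene of MXD2, had 1037 and 899 in the controls and 930 and 882 in *Bptf* cKO, and the difference on the log2 scale, -0.093 ± 0.13 (limma adjusted p = 0.793), became 0.0098 without control replicate 1. Small antisense overlaps cover 6.06% of the exon length of *Mxd4* and 2.84% of that of *Mxi1*.

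*Mnt* (chr11:74830920-74845725, plus strand), the repressor present in cycling and resting cells alike, had 1832 and 1294 in the controls and 1647 and 1322 in *Bptf* cKO. Its libraries numbered 1 were again the higher in each genotype, and the groups overlapped. Its log2 fold change was -0.061 ± 0.21 (limma adjusted p = 0.930), with 0.19 without control replicate 1 and 0.097 without *Bptf* cKO replicate 2. *Mga* (chr2:119897228-119969581, plus strand), which carries a T-box domain beside its MAX-binding domain, had 3873 and 3804 in the controls and 4529 and 4080 in *Bptf* cKO. Both *Bptf* cKO libraries were above both controls, by 0.16 ± 0.098 on the log2 scale (limma adjusted p = 0.497, 95% interval -0.084 to 0.41).

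**Figure D3:**
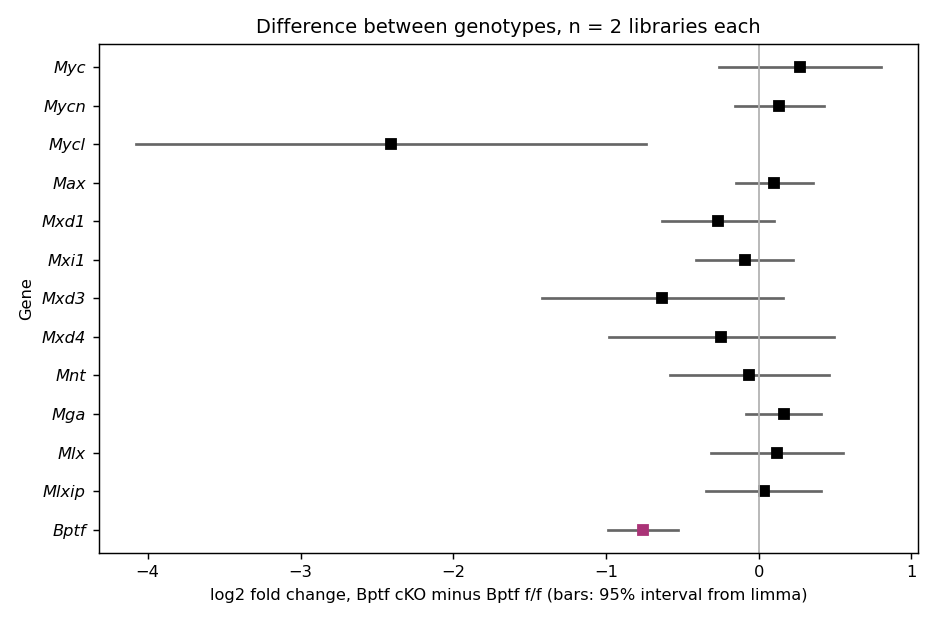
Log2 fold change (Bptf cKO minus Bptf f/f) for the network genes, *Mlx*, *Mlxip* and *Bptf*, with 95% intervals from limma (n = 2 libraries each). The intervals of *Mycl* (-4.08 to -0.74) and *Bptf* (-0.99 to -0.53, in purple, the one gene here past the adjusted threshold) lie below 0, and all others cross it.

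Summed per kb of exon, the classes show how the network was composed. *Myc*, *Mycn* and *Mycl* together stood at 3176 and 2187 normalized read counts per kb in the controls and at 3188 and 3046 in *Bptf* cKO. *Mxd1*, *Mxd3*, *Mxd4* and *Mxi1* together stood at 734 and 597 in the controls and at 553 and 530 in *Bptf* cKO, with both *Bptf* cKO libraries lower. *Mnt* and *Mga* together were at 648 and 528 against 651 and 552, and *Max* was at 619 and 567 against 623 and 649. In each library the summed MYC class thus exceeded *Max* RNA per kb severalfold, by 5.14 and 3.86 times in the controls and 5.12 and 4.70 times in *Bptf* cKO.

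The ratio of the MYC class to the MXD class was 4.33 and 3.66 in the controls and 5.76 and 5.74 in *Bptf* cKO. The groups did not overlap in this ratio, nor when *Mnt* and *Mga* were added to the repressors (2.30 and 1.94 against 2.65 and 2.81). Both ratios were formed after the values were known and carry no test, and they are ratios of RNA, not of protein.

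**Figure D4:**
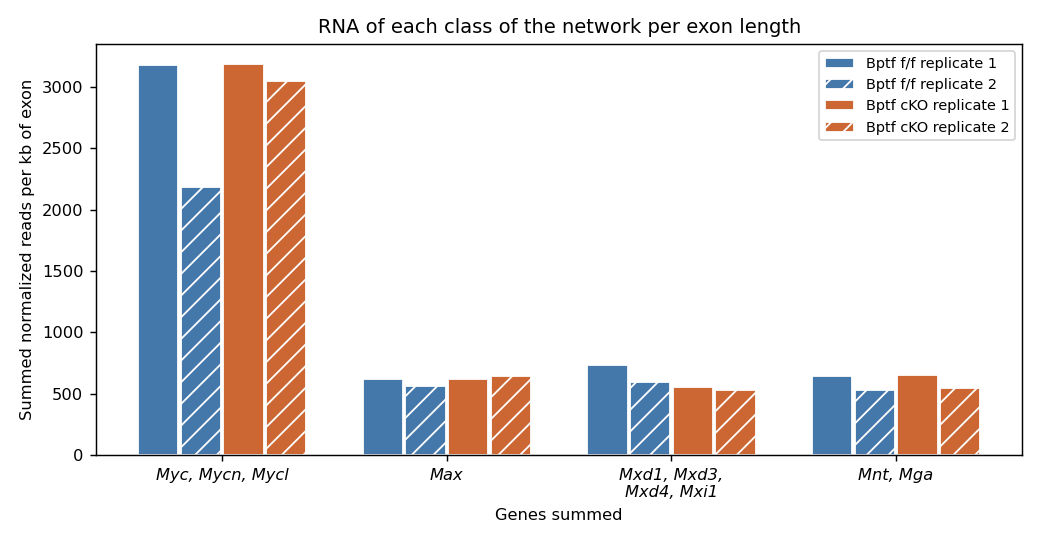
Summed normalized reads per kb of exon of each class of the network, one bar per library, plain for replicate 1 and hatched for replicate 2 (blue Bptf f/f, orange Bptf cKO). The MYC class stands at 2187 to 3188 and the other classes at 528 to 734, and the MXD class is lower in both Bptf cKO libraries.

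The MLX branch differed little between the genotypes. *Mlx* had 480 and 586 in the controls and 529 and 628 in *Bptf* cKO (log2 fold change 0.12 ± 0.17, limma adjusted p = 0.805), and 19.3% of its exon length overlaps *Psmc3ip* on the other strand. *Mlxip*, the partner also called MondoA, had 4116 and 3321 against 4115 and 3477 (0.033 ± 0.15, limma adjusted p = 0.950). *Mlxipl*, the ChREBP gene of liver and fat, was near the limit of detection, at 4 to 6 reads in a library, and was not tested.

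Of 21 cofactors of MYC and MXD proteins, limma, edgeR and DESeq2 each called 0, and 1 passed at an unadjusted limma p under 0.05, against 15.7% of all tested genes. Fold changes were above 0 for 12 and below 0 for 9, with a median of 0.038. *Hcfc1*, a cofactor that binds MYC directly, had 10450.2 and 11339 in the controls and 12451 and 13546 in *Bptf* cKO (0.25 ± 0.10, limma adjusted p = 0.317). *Ruvbl2*, an ATPase of the TIP60 complex, and *Actl6a*, an actin-related subunit of the same complex, had log2 fold changes of 0.23 and 0.14. At the other end, the SIN3 complex genes *Sap30* and *Rbbp7* had -0.19 and -0.15, and *Paf1*, of the elongation complex of that name, had -0.16. The scaffolds themselves lay near 0, with *Trrap* at -0.017, *Sin3a* at -0.079 and *Sin3b* at 0.072, and these 3 were picked for their role after the values were seen.

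The complex in which MGA and MAX work, PRC1.6, had 13 further genes, of which limma and edgeR called 0. At an unadjusted p under 0.05 there was 1 gene higher and 2 lower in *Bptf* cKO, where 15.7% of all tested genes passed, and DESeq2 called 1, *Tfdp2*, against 5.51%. *Pcgf6*, the subunit that sets this complex apart from other polycomb complexes, had 712 and 653 in the controls and 526 and 367 in *Bptf* cKO (-0.63 ± 0.21, limma adjusted p = 0.252). *Tfdp2*, a dimerization partner of E2F proteins, had 2716 and 2651 against 1973 and 2028, with tight replicates (-0.42 ± 0.091, limma adjusted p = 0.128). *Ring1* and *Rnf2*, the alternative ubiquitin ligases of the complex, differed in sign at 0.35 and -0.18, and *Yaf2* and *Ehmt2* had 0.28 and 0.15. For 6 of these genes both *Bptf* cKO libraries lay above both controls and for 5 below both (46.2% and 38.5%, against 23.2% and 23.8% of all tested genes), while the median was 0.045.

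Of 20 genes that set the stability of MYC protein, 19 were listed and tested, and limma, edgeR and DESeq2 called 0, with 2 at an unadjusted p under 0.05, against 15.7% of all tested genes. *Fbxw7*, the ligase subunit best known for degrading MYC, had 573 and 600 in the controls and 639.5 and 545 in *Bptf* cKO, and was chosen for its role after the values were seen. *Usp36*, a nucleolar deubiquitinase that stabilizes MYC, had 1913 and 2072 against 2589 and 2504 (0.35 ± 0.098, limma adjusted p = 0.196). *Ppp2r5a* and *Huwe1* had log2 fold changes of 0.18 and 0.080, and *Trim32*, *Btrc* and *Fbxo32* had -0.38, -0.37 and -0.30. RNA levels say nothing of the amount of MYC protein, which was not measured in these libraries.

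The 57 growth genes that MYC is known to activate, mostly of ribosome biogenesis, nucleotide synthesis and translation, had fold changes mainly above 0. Limma called 0 of 57 at an adjusted p under 0.05, with 18 at an unadjusted p under 0.05, all higher in *Bptf* cKO, where 15.7% of all tested genes passed in either direction. EdgeR called 0 and DESeq2 called 7 (against 5.51% of all tested genes), all higher, namely *Nop2*, *Rrp12*, *Bysl*, *Tcof1*, *Pa2g4*, *Srm* and *Ccnd2*. Fold changes were above 0 for 51 and below 0 for 6, and their median was 0.21, beside 0.0010 for all tested genes. Both *Bptf* cKO libraries lay above both controls for 32 (56.1%, against 23.2% of all tested genes) and below both for 0. The list's total was 1.12% and 1.28% of all normalized reads in the controls and 1.35% and 1.35% in *Bptf* cKO. Without control replicate 1 the count above 0 dropped to 40 and the median to 0.11. The genes were picked with earlier results of these data known, so their direction is not independent evidence.

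*Rrp12*, a factor in the maturation and export of ribosomal subunits, had 1425 and 1836 in the controls and 2682 and 2722 in *Bptf* cKO (0.74 ± 0.14, limma adjusted p = 0.107). *Hk2*, the hexokinase of growing cells, had 1263 and 1716 against 2022 and 2579 (0.63 ± 0.20, limma adjusted p = 0.232). *Bysl*, needed for the small ribosomal subunit, had 846 and 909 against 1282 and 1219 (0.51 ± 0.11, limma adjusted p = 0.129). In all 3 the *Bptf* cKO libraries lay above both controls, yet none passed the adjusted threshold. *Odc1*, the textbook MYC target in polyamine synthesis, had 2560 and 3882 against 3079 and 3128 (-0.023 ± 0.20, limma adjusted p = 0.915), so its controls spanned both *Bptf* cKO libraries. *Prmt3* and *Mcm4* had log2 fold changes of -0.054 and -0.12.

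The E-box was found in the promoter windows of 15 of 47 such genes with an entry (31.9%). The tested genes with it had a median log2 fold change of 0.25, with 12 of 15 above 0, and those without it had 0.17, with 30 of 32 above 0. *Cdk4*, the cyclin-dependent kinase of the G1 phase, holds 4 copies upstream of its start, the most of any gene in the list, while its RNA was at 9228 and 10072 in the controls and 9473 and 9692 in *Bptf* cKO (-0.0089 ± 0.094, limma adjusted p = 0.979). It is shown for that contrast of sequence and level, was chosen after the values were seen, and covers the bases from -185 to -1, with capitals at each E-box.
Cdk4, chr10:127063350-127063534, plus strand: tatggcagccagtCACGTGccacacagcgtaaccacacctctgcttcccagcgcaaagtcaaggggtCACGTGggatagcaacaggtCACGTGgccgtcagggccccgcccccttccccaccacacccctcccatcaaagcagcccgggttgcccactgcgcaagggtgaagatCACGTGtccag
*Nop2*, a nucleolar RNA methyltransferase, holds a single copy at -60 and had 2581 and 2833 in the controls and 3614 and 3826 in *Bptf* cKO (0.46 ± 0.100, limma adjusted p = 0.129). Its site is printed in the same way.
Nop2, chr6:125131811-125131840, plus strand: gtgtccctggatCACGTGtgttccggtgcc
A match of these letters is a description of the window, and binding was not measured in these libraries.

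Proliferation genes, of the cell cycle that MYC is known to drive, had similar sums in both genotypes. Of 20 tested, limma, edgeR and DESeq2 called 0, against 0.74%, 0.633% and 5.51% of all tested genes. At an unadjusted limma p under 0.05 there were 0, against 15.7%, and the median log2 fold change was -0.033. Both *Bptf* cKO libraries lay above both controls for 0 and below both for 0, against 23.2% and 23.8% of all tested genes. *Mki67*, the Ki-67 gene, had 13276 and 24868 in the controls and 15892 and 27137 in *Bptf* cKO. *Tpx2* and *Ccnb1* had log2 fold changes of 0.11 and 0.069, and *Kif20a*, *Nusap1* and *Aurkb* had -0.18, -0.16 and -0.16. The list took 0.350% and 0.344% of the reads of the libraries numbered 1 in the controls and *Bptf* cKO, and 0.610% and 0.608% of those numbered 2. In this list the libraries differed by replicate number in both genotypes more than by genotype.

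Of the immediate-early genes, the fast response genes to which *Myc* itself is often counted, 16 of 17 had fold changes below 0. The other was *Egr2*, with 5.43 and 37.4 in the controls and 18.2 and 33.9 in *Bptf* cKO, named after its values were seen. Of the 17 tested, limma called 1 lower, *Zfp36*, and 0 higher, and 13 were lower and 0 higher at an unadjusted p under 0.05, while edgeR called 1 and DESeq2 10 lower. Of all tested genes, limma called 0.74%, edgeR 0.633% and DESeq2 5.51%, and 15.7% passed at an unadjusted p. *Zfp36*, a factor that destabilizes messenger RNA, had 10453 and 15449 in the controls and 3573 and 2853 in *Bptf* cKO and fell by 1.99 on the log2 scale (SE 0.22, limma adjusted p = 0.0368). The call of *Zfp36* was lost when either *Bptf* cKO library was left out, where limma called almost no genes at all. How many genes of the list and of all tested genes were called also changed without either control library. This list too was chosen with earlier results known, so its direction is not independent evidence. *Klf2*, *Fosb* and *Fos* had log2 fold changes of -3.21, -2.95 and -2.51, and *Ier3*, *Ier2* and *Nr4a1* had -0.50, -0.53 and -0.60. The summed list took 0.458% and 1.11% of the control reads and 0.165% and 0.182% of the *Bptf* cKO reads. *Myc* went the other way across the control libraries, with its lower value in control replicate 2, where the list was highest.

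**Figure D5:**
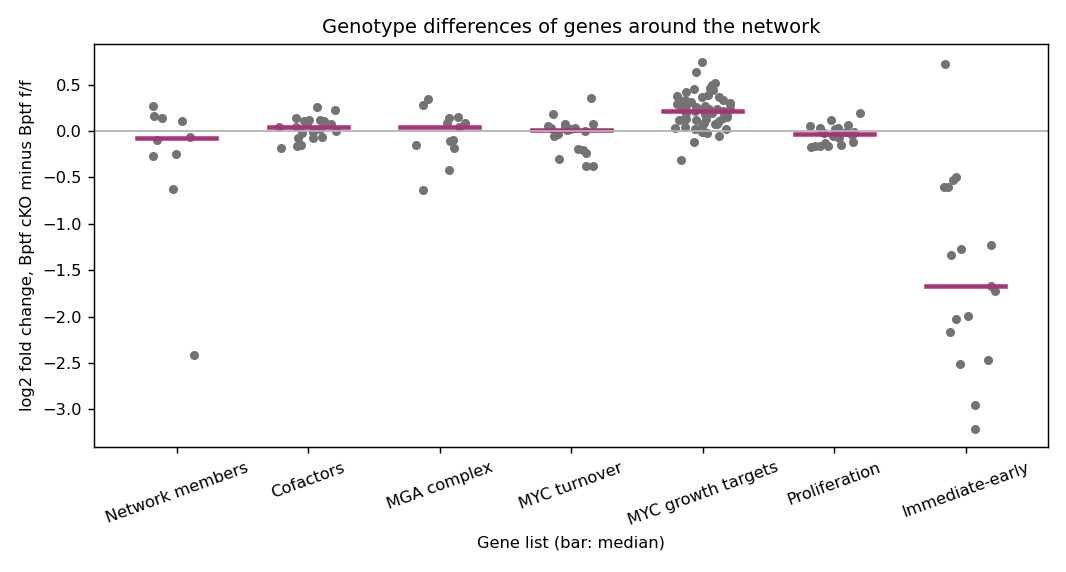
Log2 fold change (Bptf cKO minus Bptf f/f) for each tested gene of the lists around the network (grey points) with the list median (purple bar). Medians lie between -0.077 and 0.045 for the network members, the cofactors, the MGA complex, the turnover genes and proliferation, at 0.21 for MYC growth targets and at -1.67 for immediate-early genes.

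The pattern of *Myc* over the 4 libraries, 3 at one level and control replicate 2 lower, was shared most closely by *Evi2a*, *Gm12216*, *Trim11*, *U2af1l4* and *Slc29a2* among 10814 other genes with a mean of at least 100. Likeness was measured as the root mean square distance between log2 values centred over the libraries, and it ran from 0.018 for *Evi2a* to 0.037 for *Slc29a2*. *Evi2a* had 190 and 122 in the controls and 194 and 182 in *Bptf* cKO, and *Trim11*, a ubiquitin ligase gene, had 1099 and 754 against 1124 and 1053. With 4 libraries such a match is a description of the pattern alone.

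Markers of other blood cells moved in the same libraries. Of 10 erythroid genes 9 were tested, and all 9 had fold changes below 0, with both *Bptf* cKO libraries under both controls in 7, against 23.8% of all tested genes. *Epor*, the erythropoietin receptor, was called lower, as were 0.37% of all tested genes (326 and 255 against 77.3 and 69.1, log2 fold change -1.96, limma adjusted p = 0.0443). The list summed to 0.00982% and 0.00825% of the control reads and to 0.00125% and 0.00223% of the *Bptf* cKO reads, far below the network members at 0.113% and 0.0871% against 0.109% and 0.0989%. EdgeR called 0 genes of this list, against 0.633% of all tested genes. DESeq2 called 4 lower, *Hbb-bt*, *Epor*, *Klf1* and *Ermap*, against 5.51%, and gave 1 gene no adjusted p. The part of these shifts in the values of the network genes was not tested.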

How the data were processed

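The authors deposited one table in which each library's gene read counts had been scaled by its size factor, a signal per gene and library, beside their own comparison (mean, log2 fold change, standard error, statistic, p-value and adjusted p-value), whose columns were not used. The submitters' processing notes name HISAT2, featureCounts, DESeq2, GRCm38 and mm10. Every value in each library was a whole multiple of 1 read (100% of values, tolerance 0.01), so whole reads were recovered for edgeR 4.0.16 (quasi-likelihood test, TMM) and DESeq2 1.42.0 (Wald test), run as alternatives, and edgeR called 94 and DESeq2 819 genes where limma called 110. Listed genes have at least 11 reads over the 4 libraries.

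The main test, in R 4.3.3, was limma 3.58.1 with its trend option. Values were log2-transformed after adding a pseudocount of 1, for genes with a mean of at least 10, two-sided, with Benjamini-Hochberg adjustment and a threshold of 0.05. Genotype was the only factor. An exact permutation test of 2 against 2 libraries cannot give a p under 0.333. Replicates are pools of mice, and nothing else says how far they are separate experiments. The limma, edgeR and DESeq2 fits were also run on simulated counts. These had the same dispersion for every gene and no replicate effect, so that run does not speak to the spread between these libraries. The fold change on this scale understates that of low genes.

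Members and lists were chosen with earlier results of these data known. The genes named were the members, the MLX branch, *Bptf*, in each list the 3 with the highest and the 3 with the lowest fold change among those with a mean of at least 100, and the 5 nearest to *Myc*; others named were chosen after their values were seen. Lists were described by counts and medians. Positions and exon lengths came from GENCODE release M21 (GRCm38) and promoters from RefSeq (GRCm38.p6). Alternatives were recentring, quantile normalization, pseudocounts of 0.5 and 10, no filter, a mean of at least 50, no trend, a replicate block and leaving out each library.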

Additional observations from a re-analysis of the deposited data

How the results depend on the processing

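With 2 libraries per genotype, precision is set by the spread between libraries, except for *Mycl*, at 5 and 7 reads in *Bptf* cKO. Where a library was left out, the lone library was assumed to vary like the rest. No member passed the adjusted threshold under recentring, quantile normalization, other pseudocounts or filters, no trend, edgeR, DESeq2 or leaving out any library. The sign of *Mycn*, *Mycl*, *Max*, *Mxd1*, *Mxd3* and *Mga* was the same in each of these fits that tested the gene. It turned for *Myc* without control replicate 2 (range over left-out libraries -0.037 to 0.58), for *Mxd4* without control replicate 1 (0.13) and without *Bptf* cKO replicate 2 (0.0053, range -0.62 to 0.13), for *Mxi1* without control replicate 1 (range -0.20 to 0.0098), and for *Mnt* without control replicate 1 (0.19) and without *Bptf* cKO replicate 2 (0.097, range -0.31 to 0.19). *Mycl* was below a filter of a mean of at least 50.

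The labels give both genotypes replicate numbers 1 and 2 but do not say that a number marks a shared day or litter. Deviations from the group means correlated between same-numbered libraries at 0.452 over 14858 genes and 0.638 at a mean of at least 100. With the replicate block, limma called 896 genes higher and 1242 lower, against 55 and 55 without it. EdgeR called 891 and 1229 with the block, against 49 and 45 without it. Both called 2 of 10 members, *Mycl* (adjusted p = 0.0154 in limma and 0.00980 in edgeR) and *Mxd3* (0.0334 and 0.0358). Of all tested genes, limma called 14.4% in that fit and edgeR 14.3%. With the replicate block limma and edgeR called 2 and 2 of 13 genes of the MGA complex and 1 and 1 of 19 turnover genes. They called 13 and 15 of 57 growth targets and 13 and 13 of 17 immediate-early genes, beside the same shares of all tested genes.

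DESeq2 called 319 genes higher and 500 lower, 1 gene of the MGA complex, 7 growth targets and 10 immediate-early genes, and limma without the trend called 2 higher, 0 lower and 0 immediate-early genes. Leaving out one library gave 1 to 78 genes higher (1 and 2 without *Bptf* cKO replicate 1 and 2), 0 to 45 lower (0 and 2 without these, and 21 without control replicate 2) and 0 to 10 immediate-early genes (0 without either *Bptf* cKO replicate, 10 without control replicate 1 and 5 without control replicate 2). The cause of these differences was not tested. Taking growth targets under the same alternatives, chosen after seeing the data, 40 to 54 had fold changes above 0 and the median ran from 0.11 to 0.31.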
